A study of Mus musculus with 13 samples.

Results

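Cholesterol moves between the membranes of a cell by several routes. Lipoproteins are taken up by receptors, their cholesteryl esters are hydrolysed in the lysosome, and free cholesterol is handed from the soluble protein NPC2 to the membrane protein NPC1, which lets it leave the compartment. The Aster proteins, encoded by Gramd1a, Gramd1b and Gramd1c, sit in the endoplasmic reticulum, where they reach across to the plasma membrane and bring accessible cholesterol inward, and the enzyme encoded by Soat1 then converts cholesterol to esters for storage. Microglia, the resident macrophages of the brain, take up large amounts of myelin and cell debris and so handle a heavy sterol load. The genes described here are 8 genes of intracellular cholesterol transport and ester storage among the 52636 genes listed for every mouse. They are the 3 Aster genes, the ester genes Soat1 and Nceh1, and the late endosomal and lysosomal genes Npc1, Npc2 and Stard3. Gramd1b was chosen by its difference in the comparison of genotypes below, and the other 7 were chosen for their function with results of these data known, so the values of Gramd1b, its SE and interval included, describe the spread between mice and support no call, and the tests of the others are not independent evidence.

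RNA was sequenced from resident myeloid cells sorted as CD11b+CD45+Ly6g-Ccr2- from the cortex and hippocampus of PS2APP mice, which carry human presenilin 2 and APP transgenes with familial Alzheimer's disease mutations and deposit β-amyloid. Both groups carried both transgenes and were 14 to 15 months old. PS2APP;Trem2wt mice (labelled simply PS2APP; n = 7, 5 females and 2 males) had intact Trem2, a lipid-sensing receptor of microglia, and PS2APP;Trem2ko mice (n = 6, 5 females and 1 male) came from the same breeding and were homozygous for a null allele that removes it from every cell of the body. Each library came from 1 mouse, but mice without the transgenes were not analysed here, and the sort also admitted some perivascular macrophages.

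Trem2 was at 1044 ± 141 nRPKM (SD, n = 7) in PS2APP;Trem2wt and at 0.887 ± 0.734 (SD, n = 6) in PS2APP;Trem2ko, where nRPKM is the authors' read count per kilobase of gene scaled by library size. Total counts were 26120961 to 114857155 in PS2APP;Trem2wt and 41567025 to 120569609 in PS2APP;Trem2ko, and the mean log2 total was higher by 0.59 in PS2APP;Trem2ko (two-sided exact permutation test, p = 0.189). The summed level of 9 microglia markers, led by C1qa, was between 8963 and 10652 nRPKM in every mouse, whereas that of 10 neuron markers, led by Snap25, was between 4.99 and 16.2. None of the 7 marker lists for microglia and other cell types passed the test between genotypes (adjusted p of 0.371 or more over the 7 lists, exact permutation test). The lowest unadjusted p, 0.0530, was that of 8 astrocyte markers (log2 difference 0.16), led by Slc1a3, which was itself 0.30 higher on the log2 scale (SE 0.07, edgeR adjusted p = 0.0533). Slc1a3 had a mean of 51.9 nRPKM and made up most of this sum, which was 64.0 to 90.2 per mouse. Of the 8 astrocyte markers, 4 had log2 fold changes above 0 and 4 below 0, with a median of −0.03. The log2 difference furthest from 0 was −1.22 for 8 monocyte and neutrophil markers (exact permutation test, p = 0.188, adjusted p = 0.636). It was −0.62 without PS2APP;Trem2ko replicate 6 and −0.68 with CPM in place of nRPKM. Of the 7 genes tested, 5 had log2 fold changes below 0 and 2 above 0, none called by edgeR. Ngp, S100a8, S100a9 and Camp, with PS2APP;Trem2wt means of 8.91 to 29.1 nRPKM, were at −1.40 to −1.61. The others had means there of at most 1.62, and Ccr2 was at 0.38 (SE 0.39) and Plac8 at 0.97 (SE 0.52). The sum thus mostly followed the more abundant genes and cannot speak for each cell type. These genes were named after their values were seen. The 7 border macrophage markers, led by F13a1, differed by 0.25 (exact permutation test, p = 0.454). One library, PS2APP;Trem2wt replicate 2, had the highest summed level of monocyte and neutrophil markers, led by Ngp, at 254 nRPKM against at most 95.8 in the other mice of its group.

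The 8 genes spanned a wide range of levels per kilobase. Averaged over the 13 mice, Npc2 was highest at 149.5 ± 18.1 nRPKM (SD), followed by Stard3 at 81.8 ± 7.47 and Gramd1a at 43.5 ± 8.96. Npc1 at 21.3 ± 1.73, Soat1 at 20.7 ± 2.93 and Nceh1 at 17.1 ± 4.30 lay close together. Gramd1b followed at 1.94 ± 0.76 and Gramd1c was barely detected. The order was the same in all 13 mice except among the 3 genes of similar level. Npc1 exceeded Soat1 in 8 of 13 mice, and this pair did not differ beyond its spread. Soat1 exceeded Nceh1 in 5 of 7 PS2APP;Trem2wt and 6 of 6 PS2APP;Trem2ko mice. Gramd1a was the main Aster transcript of these cells in both genotypes, at 22.2 to 43.6 times the nRPKM of Gramd1b in PS2APP;Trem2wt and at 16.3 to 24.6 times in PS2APP;Trem2ko. The size of these ratios depends on the gene lengths used for nRPKM, and raw counts lay closer together. Gramd1a had 3785 to 21886 counts per PS2APP;Trem2wt mouse against 427 to 2693 for Gramd1b. In PS2APP;Trem2ko it had 7137 to 28927 against 1344 to 5401.

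**Figure D1:**
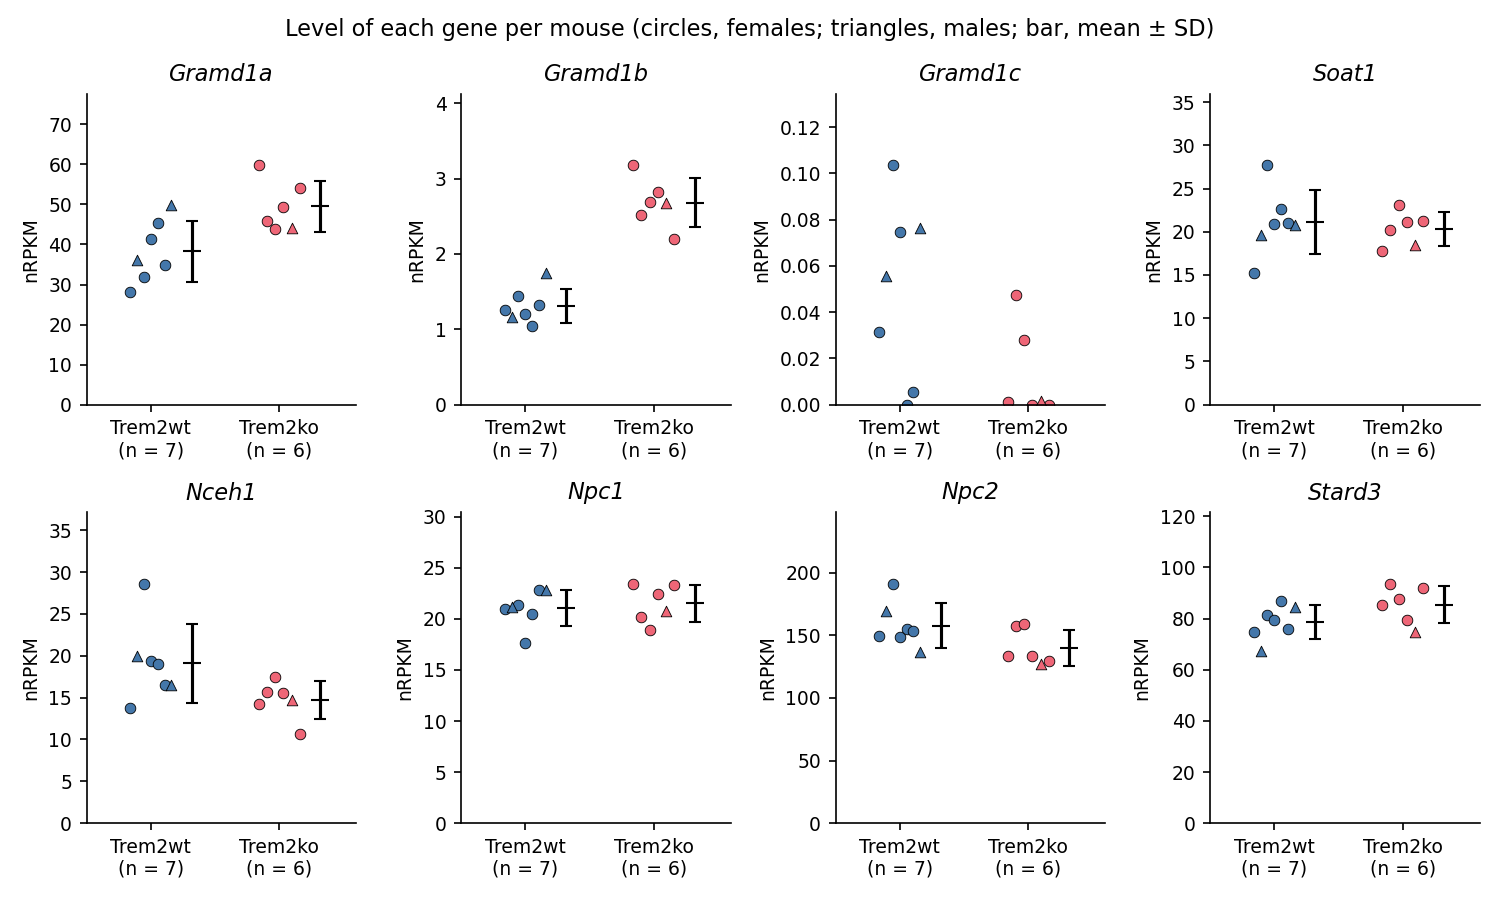
Level of each gene in nRPKM per mouse (vertical axes, each from 0) in PS2APP;Trem2wt (blue, n = 7) and PS2APP;Trem2ko (red, n = 6), with females as circles, males as triangles and the mean ± SD beside them, except for Gramd1c, which was near the counting floor. Every PS2APP;Trem2ko mouse lies above every PS2APP;Trem2wt mouse for Gramd1b, and the groups overlap for the other genes.

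To ask whether loss of Trem2 changed the transcripts of this route, counts were compared between genotypes with edgeR's quasi-likelihood test over the 17086 genes that passed the count filter. Of the 8 genes, 7 passed the filter and Gramd1c did not. Gramd1b is left out of the counts of calls, since this contrast chose it. None of the other 6 genes was called higher or lower at an adjusted p up to 0.05, beside 0.503% of all genes called higher and 1.53% called lower. At an unadjusted p of 0.05, Gramd1a was higher, as were 7.29% of all genes, and Nceh1 was lower, as were 7.56%. With Gramd1b, the 7 log2 fold changes had a median of 0.03, beside 0.004 for all genes tested, with 4 above and 3 below 0. These are sorted-cell averages, in which fewer cells with a transcript and less of it per cell cannot be told apart.

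**Figure D2:**
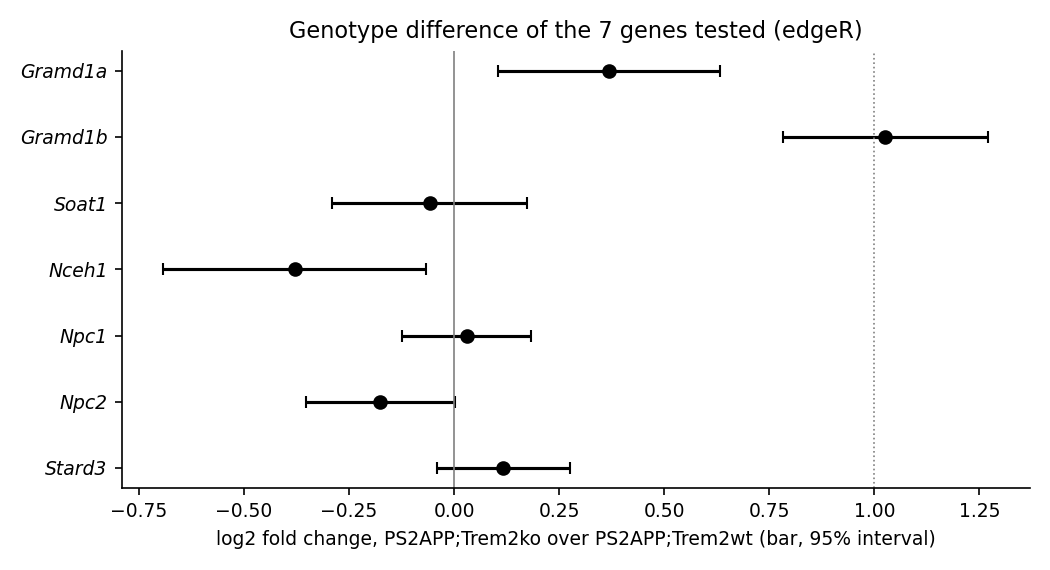
Log2 fold change of PS2APP;Trem2ko over PS2APP;Trem2wt from edgeR (horizontal axis) with its 95% interval for each of the 7 genes tested, with solid and dotted lines at 0 and 1. Gramd1b sits at 1.03, Gramd1a at 0.37 and Nceh1 at −0.38, and the intervals of Soat1, Npc1, Npc2 and Stard3 include 0.

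Among the Aster genes, Gramd1b (ENSMUSG00000040111, chromosome 9, 40293233 to 40531383, minus strand, GRCm38) had about double the level in PS2APP;Trem2ko microglia. The 7 PS2APP;Trem2wt mice were at 1.26, 1.16, 1.44, 1.20, 1.04, 1.33 and 1.74 nRPKM, and the 6 PS2APP;Trem2ko mice at 3.18, 2.51, 2.69, 2.82, 2.68 and 2.20. The lowest PS2APP;Trem2ko mouse was thus above the highest PS2APP;Trem2wt mouse, a male, and such a separation occurred for 0.439% of all genes tested. Means were 1.31 ± 0.23 (SD, n = 7) and 2.68 ± 0.32 (SD, n = 6), with a log2 fold change of 1.03 (SE 0.12, 95% interval 0.78 to 1.27), which is 2.04-fold (1.72 to 2.41). The level rested on 427 to 2693 counts per PS2APP;Trem2wt mouse and 1344 to 5401 per PS2APP;Trem2ko mouse.

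Some technical measures touch this value. Within genotypes the level of Gramd1b rose with library depth (Pearson r = 0.72 with log2 total counts over the 13 mice, genotype means removed), and the deepest library of each genotype gave its highest level. Without the 3 libraries of over 100000000 counts, a choice made after seeing the data, the log2 fold change was 1.05 (SE 0.11), and with every library thinned to 26120961 counts it was 1.01 (SE 0.13). Neurons also express Gramd1b strongly, and the summed neuron markers had medians of 7.91 nRPKM (5.42 to 16.2) in PS2APP;Trem2wt and 11.2 (4.99 to 15.5) in PS2APP;Trem2ko, a log2 difference of 0.30 (exact permutation test, p = 0.354, adjusted p = 0.636). Of these 10 markers 8 had means under 1 nRPKM and none was at 0 in all mice. Within genotypes Gramd1b and the neuron sum had r = −0.21 over the 13 mice, and the part of neuronal RNA in the Gramd1b difference was not tested. Exons of Gramd1b overlap the antisense gene 1700110K17Rik, which had 0 to 120 counts, and the strand setting of the counting is not given in the sources used here.

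Gramd1a (ENSMUSG00000001248, chromosome 7, 31130127 to 31155896, minus strand), the most abundant Aster gene, ranged from 28.2 to 49.8 nRPKM (median 36.2) in PS2APP;Trem2wt and from 43.9 to 59.8 (median 47.6) in PS2APP;Trem2ko. All 6 PS2APP;Trem2ko mice were above the PS2APP;Trem2wt median, but only 2 of them were above every PS2APP;Trem2wt mouse, so the groups overlapped. Means were 38.2 ± 7.64 (SD, n = 7) and 49.5 ± 6.34 (SD, n = 6). The log2 fold change of 0.37 (SE 0.12, 95% interval 0.10 to 0.63) had an unadjusted p of 0.0094 and did not pass adjustment over all genes (edgeR, adjusted p = 0.161). Within genotypes Gramd1a was lower in mice with higher sums of other cells' markers, with r = −0.62 for monocytes and neutrophils, −0.58 for oligodendrocytes, −0.52 for astrocytes and −0.46 for neurons over the 13 mice, and their part in its genotype difference was not tested. Of the 50-base words of its transcripts, 5.76% also occur on either strand of the antisense gene G630030J09Rik, which had 1 to 38 counts against 3785 to 28927 for Gramd1a.

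Gramd1c (ENSMUSG00000036292, chromosome 16, 43980350 to 44063345, minus strand), the third Aster gene, was near the limit of detection. It had 0 to 52 counts per mouse in PS2APP;Trem2wt and 0 to 18 in PS2APP;Trem2ko. Taking 3 counts as the floor below which a library cannot be told from one without the transcript, 2 of 7 PS2APP;Trem2wt and 4 of 6 PS2APP;Trem2ko libraries were at or under it. Summed over mice, there were 126 counts of 355101085 and 27 counts of 433460211. In a fit without the count filter its log2 fold change was −1.96 with an SE of 1.03 (edgeR, adjusted p = 0.369), too imprecise to show a difference at this depth.

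The ester storage genes act in opposite directions, Soat1 (ENSMUSG00000026600, chromosome 1, 156424525 to 156474331, minus strand) making cholesteryl esters in the endoplasmic reticulum and Nceh1 (ENSMUSG00000027698, chromosome 3, 27182965 to 27284608, plus strand) hydrolysing them outside the lysosome. Soat1 ranged from 15.2 to 27.7 nRPKM (median 20.9) in PS2APP;Trem2wt and from 17.8 to 23.1 (median 20.7) in PS2APP;Trem2ko. The PS2APP;Trem2ko mice fell entirely inside the PS2APP;Trem2wt range, with 3 above and 3 below its median. Means were 21.1 ± 3.71 (SD, n = 7) and 20.3 ± 1.93 (SD, n = 6), with a log2 fold change of −0.06 (SE 0.11, 95% interval −0.29 to 0.17, edgeR adjusted p = 0.861). Differences within these bounds could not be resolved with these mice.

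Nceh1 ranged from 13.8 to 28.6 nRPKM (median 19.0) in PS2APP;Trem2wt and from 10.6 to 17.5 (median 15.1) in PS2APP;Trem2ko. All 6 PS2APP;Trem2ko mice lay under the PS2APP;Trem2wt median and 1 lay under the whole PS2APP;Trem2wt range. Means were 19.1 ± 4.71 (SD, n = 7) and 14.7 ± 2.29 (SD, n = 6), with a log2 fold change of −0.38 (SE 0.15, 95% interval −0.69 to −0.07) that had an unadjusted p of 0.0203 and did not pass adjustment over all genes (edgeR, adjusted p = 0.224). The PS2APP;Trem2wt spread owed much to replicate 3 at 28.6, and without that mouse the log2 fold change was −0.26 (SE 0.11). The ratio of Soat1 to Nceh1 within a mouse was 0.968 to 1.28 in PS2APP;Trem2wt and 1.25 to 2.0 in PS2APP;Trem2ko, given as a description.

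None of the late endosomal and lysosomal genes passed the test between genotypes. Npc1 (ENSMUSG00000024413, chromosome 18, 12189692 to 12236400, minus strand), the membrane exporter, ranged from 17.6 to 22.8 nRPKM (median 21.2) in PS2APP;Trem2wt and from 18.9 to 23.4 (median 21.6) in PS2APP;Trem2ko, so that the groups overlapped almost fully. Means were 21.0 ± 1.76 (SD, n = 7) and 21.5 ± 1.83 (SD, n = 6), and the log2 fold change of 0.03 (SE 0.07, 95% interval −0.12 to 0.18, edgeR adjusted p = 0.898) was the smallest of the 7 in size. Npc1 shares exon sequence with the oppositely oriented gene Rmc1, in which 3.70% of its 50-base words recur and which had 655 to 5081 counts against 3517 to 21824 for Npc1.

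Npc2 (ENSMUSG00000021242, chromosome 12, 84754562 to 84773152, minus strand), which binds cholesterol in the lysosomal lumen, was between 136.4 and 191.2 nRPKM (median 153.5) in PS2APP;Trem2wt and between 126.9 and 158.9 (median 133.3) in PS2APP;Trem2ko. In 4 of 6 PS2APP;Trem2ko mice it was lower than in any PS2APP;Trem2wt mouse, while the other 2 lay above the PS2APP;Trem2wt median. Means were 157.8 ± 17.7 (SD, n = 7) and 139.8 ± 14.3 (SD, n = 6), with a log2 fold change of −0.18 (SE 0.08, 95% interval −0.35 to 0.002, edgeR adjusted p = 0.344). Within genotypes Npc2 had r = 0.56 with the oligodendrocyte sum, 0.48 with the astrocyte sum and 0.46 with the monocyte and neutrophil sum over the 13 mice, and their part was not tested.

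Stard3 (ENSMUSG00000018167, chromosome 11, 98358368 to 98381112, plus strand), a late endosomal protein that holds the endosome to the endoplasmic reticulum and carries sterol between them, was between 67.5 and 86.9 nRPKM (median 79.4) in PS2APP;Trem2wt and between 74.8 and 93.6 (median 86.4) in PS2APP;Trem2ko. In 3 PS2APP;Trem2ko mice it was above every PS2APP;Trem2wt mouse. Means were 78.6 ± 6.54 (SD, n = 7) and 85.4 ± 7.24 (SD, n = 6), with a log2 fold change of 0.12 (SE 0.07, 95% interval −0.04 to 0.27, edgeR adjusted p = 0.498). Within genotypes Stard3 had r = −0.65 with the monocyte and neutrophil sum, whose part was not tested. The ratio of Npc2 to Npc1 was 5.98 to 8.93 in PS2APP;Trem2wt and 5.55 to 8.39 in PS2APP;Trem2ko, and that of Stard3 to Npc1 was 3.19 to 4.51 and 3.55 to 4.64, so that both ratios overlapped between genotypes.

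To place these genes in their route, 64 other genes of sterol handling were described in 5 groups, of which 53 passed the count filter. By edgeR's test none of the 53 was called higher or lower in PS2APP;Trem2ko, beside 0.503% and 1.53% of all genes, and their median log2 fold change was −0.03. At an unadjusted p below 0.05, 1 was higher and 6 were lower, beside 7.29% and 7.56% of all genes. Voom with limma called 2 of them lower, as it did 1.9% of all genes, and DESeq2 called 3 lower, as it did 3.08%. The groups were drawn up with results of these data known, and their counts cover the genes described here only.

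Among 17 tested sterol transfer proteins, which include the oxysterol-binding protein family, the median log2 fold change was −0.03 and the largest in size was that of Stard4, a soluble sterol carrier, at −0.76 (SE 0.29, edgeR adjusted p = 0.208). Among 10 tethers of endoplasmic reticulum contact sites the median was −0.05 and the largest was that of Esyt2 at −0.19 (SE 0.10, adjusted p = 0.437). Among 13 genes of lysosomal sterol egress the median was −0.02 and the largest was that of Smpd1, the acid sphingomyelinase, which went from 32.8 ± 1.49 (SD, n = 7) to 28.1 ± 1.74 nRPKM (SD, n = 6). In every PS2APP;Trem2ko mouse Smpd1 was below every PS2APP;Trem2wt mouse, as were 1.18% of all genes, and edgeR gave −0.23 (SE 0.06) on the log2 scale with an adjusted p of 0.0627. Of 12 other genes of ester formation and hydrolysis only 4 passed the filter, and the largest change was that of Lcat, an esterifying enzyme of plasma, at 0.18 (SE 0.28, adjusted p = 0.819) on a mean of 0.343 ± 0.088 nRPKM (SD, n = 7) in PS2APP;Trem2wt. Soat2, the other sterol acyltransferase, was at 0.600 ± 0.194 nRPKM (SD, n = 7) and 0.632 ± 0.246 (SD, n = 6), far under Soat1 in both genotypes. Lipa, the lysosomal hydrolase that frees the cholesterol passed to NPC2, was at 68.1 ± 10.8 nRPKM (SD, n = 7) and 65.1 ± 4.15 (SD, n = 6) and did not pass the test (edgeR adjusted p = 0.809). Among 9 sterol uptake receptors and their partners the median was −0.06 and the largest change was that of Cd36, a scavenger receptor, at −0.88 (SE 0.42, adjusted p = 0.343), with overlapping groups. Soat2 and Lipa were named after their values were seen, for their place in the route.

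**Figure D3:**
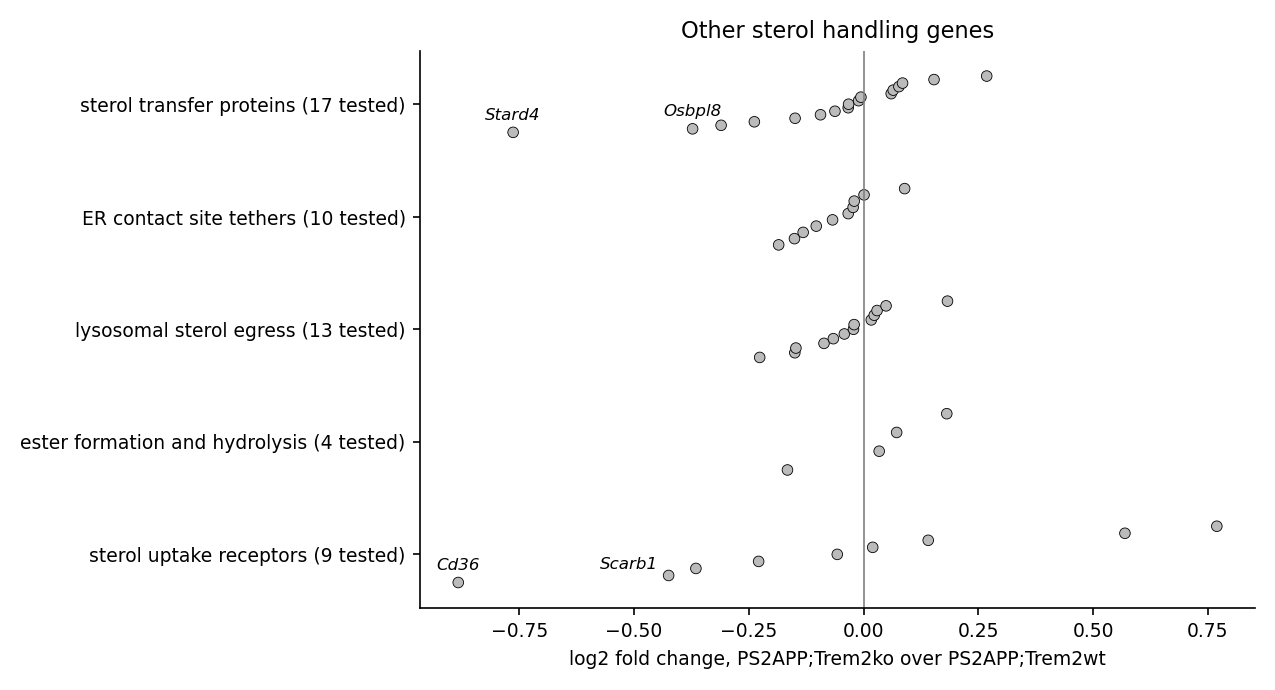
Log2 fold change of PS2APP;Trem2ko over PS2APP;Trem2wt (horizontal axis) for each of 53 other sterol handling genes in 5 groups, 1 point per gene, all in grey since no adjusted p passed 0.05. Cd36 at −0.88 and Stard4 at −0.76 lie lowest, and most genes lie near 0.

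Differences between mice of one genotype were compared across genes after removing genotype means, as Pearson correlations of log2(nRPKM + 0.1) over the 13 mice. These are given as a description, since the values share libraries and depth. The most alike pair was Nceh1 and Npc2 (r = 0.75), followed by Soat1 and Nceh1 (r = 0.69) and Soat1 and Npc2 (r = 0.54). The Nceh1 and Npc2 pair had r = 0.82 within PS2APP;Trem2wt and 0.63 within PS2APP;Trem2ko, whereas Soat1 and Nceh1 had 0.88 and 0.17, and PS2APP;Trem2wt replicate 3 was the highest mouse of its group for all 3 genes. Gramd1a and Npc2 ran in opposite directions (r = −0.50). Gramd1a and Gramd1b had r = 0.18, and Gramd1b had no r above 0.36 with another of these genes.

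**Figure D4:**
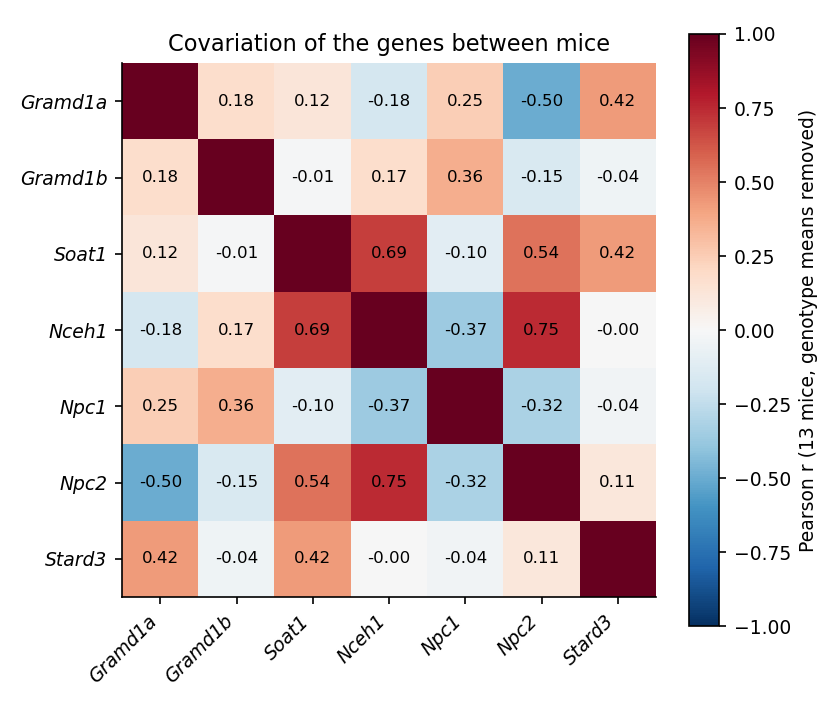
Pearson r between the 7 genes tested over 13 mice, computed on log2(nRPKM + 0.1) after subtracting each genotype's mean, with blue for negative and red for positive values. Soat1, Nceh1 and Npc2 form the block of positive values, and Gramd1a with Npc2 is the most negative pair.

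The genes most like each of these were sought by the same measure among 11001 genes with a mean of at least 1 nRPKM that passed the filter. Gramd1b was most like Klhl5 (r = 0.88), Map3k14 (0.84) and Zdhhc4 (0.81), none of which passed the test between genotypes (edgeR adjusted p of 0.557 or more). Without removing genotype means, which also counts the genotype difference itself, its nearest genes were Osgin1 (r = 0.94), Treml1 (0.93) and Tha1 (0.92). The study's authors set Treml1 aside as an artifact of the inserted knockout cassette. Its mean was 0.289 nRPKM in PS2APP;Trem2wt and 7.43 in PS2APP;Trem2ko. Gramd1a was most like Slc25a45, a mitochondrial carrier family gene (r = 0.96), Soat1 most like Atp13a2, a lysosomal transporter (0.93), and Nceh1 most like Hif1a, the hypoxia-response factor (0.92). Npc1 was most like 4933434E20Rik (0.89), Npc2 most like Ly6i (0.97) and Stard3 most like the RNA helicase Ddx39b (0.83).

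The genotype differences were recomputed with other tests, scalings, filters and samples. The log2 fold change of Gramd1b was between 0.98 and 1.11 when each mouse was left out in turn and between 0.67 and 1.10 otherwise, the lowest with limma on log2(nRPKM + 1), which shrinks changes of low genes. That of Gramd1a stayed between 0.31 and 0.48 and that of Nceh1 between −0.45 and −0.26, and neither passed adjustment in any alternative. Soat1 and Npc1 crossed 0 in some.

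**Figure D5:**
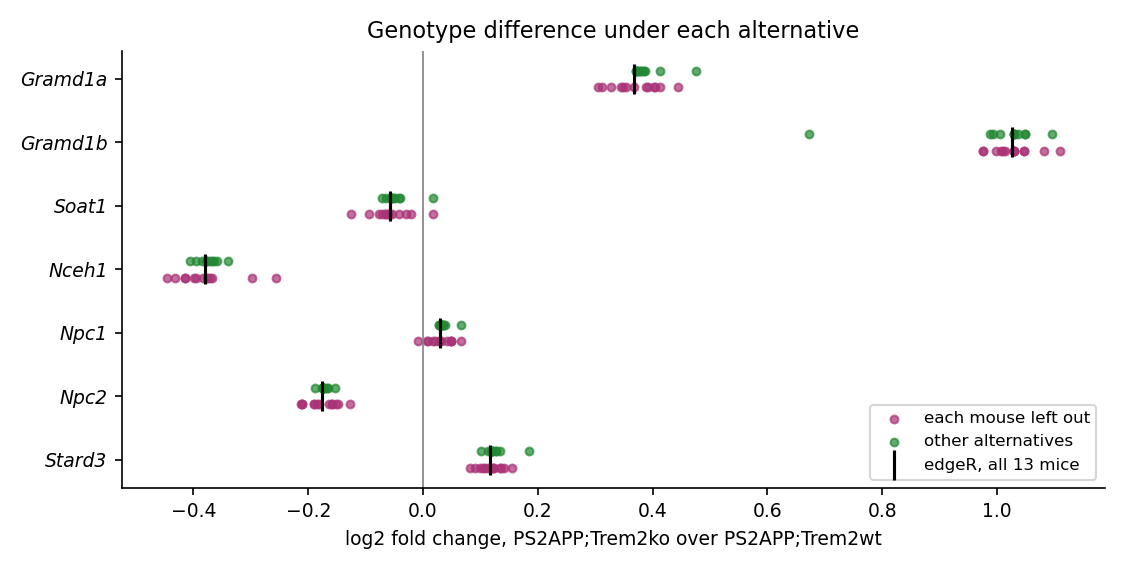
Log2 fold change of PS2APP;Trem2ko over PS2APP;Trem2wt (horizontal axis) for each of the 7 genes tested, with the edgeR value on all 13 mice as a black bar, each mouse left out in purple and other alternatives in green. Gramd1b stays above 0.67 throughout, and the other genes stay under 0.48 in size.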

How the data were processed

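RNA from sorted myeloid cells of 13 mice was amplified (SMART-seq v4) and sequenced as single-end reads. The authors discarded ribosomal and low-quality reads, aligned the rest to GRCm38 with GSNAP and deposited, per mouse and gene, the raw read count and an RPKM value scaled by size factors (nRPKM). The annotation, strand setting and GSNAP version are not given in the sources used here.

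Ensembl IDs were matched to symbols for 52403 of 52636 genes. Listed symbols missing among these names were looked up by RefSeq (GRCm38.p6) synonyms, as was done for 2 of them. Counts were tested with edgeR 4.0.16 (R 4.3.3) by its quasi-likelihood test after TMM scaling and filtering by expression, without covariates, and p-values were adjusted by Benjamini-Hochberg over 17086 genes, with calls at 0.05. The study's methods used voom and limma, and the study set a 2-fold cutoff. Voom with limma 3.58.1 and DESeq2 1.42.0 were tried here as alternatives without a fold cutoff. The 2-fold cutoff was tried with the edgeR fit only. Levels are nRPKM. Marker sums and depth were compared by two-sided exact permutation tests over 1716 splits of the mice, the smallest possible p being 0.000583. Correlations used a pseudocount of 0.1 and carry no p. Intervals cover the spread between mice, and the floor of 3 counts covers counting error only. The fits by edgeR, by voom with limma and by DESeq2 were tested on simulated counts. A limit on the share of false calls was set for edgeR and for voom with limma, but not for DESeq2. The limit on power was loosened after edgeR fell short of a first one.

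The genes and lists were chosen with earlier results of these data known, and some genes of the lists are not reported here and were left out of the counts and sums. Named genes were the 8 genes, in each list every called gene or else the one with the largest change, the 3 genes most like Gramd1b with and without genotype means removed, the 1 most like each other gene, and the top gene of each marker list. Libraries over 100000000 counts were left out as an alternative added after seeing the data.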

Additional observations from a re-analysis of the deposited data

Results flagged for a closer look

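Of 32 sets of values tested for a mouse far from the others of its group, 3 had one, where chance alone gives about 5% of sets. Nceh1 was at 28.6 nRPKM in PS2APP;Trem2wt replicate 3, with the nearest mouse of the group at 20.0. The summed endothelial markers, led by Itm2a, were at 20.4 nRPKM in PS2APP;Trem2wt replicate 2, with the nearest mouse at 10.2. The summed monocyte and neutrophil markers were at 254 nRPKM in the same mouse, with the nearest at 95.8.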

How the results depend on the processing

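In the 25 alternatives Gramd1b was called each time, which its choice by this contrast on these mice makes no independent support, and none of the others of the 8 genes that were tested was called in either direction. With voom and limma, where no fold cutoff was applied, the log2 fold change of Gramd1b was 0.993 (SE 0.12), just under 2-fold. Likewise 0 of the other sterol genes were higher. The number of other sterol genes lower was 0 on all mice, 2 with voom and limma, 3 with DESeq2, 1 with sex as a covariate, 1 with limma on log2(nRPKM + 0.1) or log2(nRPKM + 1), 1 on thinned counts and 0 to 1 with each mouse left out, being 1 without PS2APP;Trem2ko replicate 3 or replicate 5. Smpd1 was called in 5 alternatives, Osbpl8, an oxysterol-binding protein, in 4 and Scarb1, a scavenger receptor for lipoproteins, in 2, and Osbpl8 and Scarb1 are named here after their values were seen. The log2 fold change of Soat1 turned to 0.017 without the 3 deepest libraries and ranged from −0.12 to 0.017 with each mouse left out, and that of Npc1 ranged from −0.0087 to 0.067. With each mouse left out the log2 difference of summed oligodendrocyte markers, led by Mbp, ranged from −0.11 to 0.010 (0.0006 without PS2APP;Trem2wt replicate 3) and that of endothelial markers from −0.053 to 0.42 (−0.036 without PS2APP;Trem2ko replicate 6). The cause of these moves was not tested. Over all genes, DESeq2 called 325 higher and 526 lower against 86 and 262 with edgeR, and leaving out the 3 deepest libraries gave 26 and 133. No paired analysis was possible because the labels give no pairs, although the study's methods state that a mouse of each genotype was generally taken from perfusion to sorting alongside the other, so the fits ignore that pairing. Replicate numbers here follow sample order and pair nothing. Depth limits Gramd1c, at 0 to 52 counts per mouse.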

Other observations

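Scarb1, which takes up cholesterol from lipoproteins, had a mean of 31.4 ± 4.95 nRPKM over the 7 PS2APP;Trem2wt mice and of 23.4 ± 3.68 over the 6 PS2APP;Trem2ko mice (SD), which edgeR put at −0.42 on the log2 scale (SE 0.11, adjusted p = 0.0749). Osbpl8, which exchanges lipids between the endoplasmic reticulum and the plasma membrane, had means of 7.09 ± 0.71 and 5.49 ± 0.92 nRPKM over the same mice (SD), or −0.37 on the log2 scale (SE 0.10, edgeR adjusted p = 0.0747). Both ranges overlapped between genotypes. After Ly6i, the genes most like Npc2 within genotypes were Sp100 (r = 0.97) and Fgl2 (r = 0.95) over the 13 mice. Ly6i belongs to a family of similar genes that can share reads, and such sharing was not tested for Ly6i. These genes were named after their values were seen.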
